A study of Mus musculus with 6 samples.

Results

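Oxidative phosphorylation genes were examined in mouse mammary stem cells that lack MLL3. They were the genes whose symbol in the platform annotation begins Nduf followed by a, b, c, s or v, is Sdha, Sdhb, Sdhc or Sdhd, begins Uqcr, Cox followed by a digit between those of Cox4i1 and Cox8a, or Atp5, or is Cyc1 or Cycs. This rule found 91 of the 22180 genes that could be named by a probe set of their own, and it used no measured difference between the groups. The study measured gene expression on 6 single-channel Affymetrix arrays to ask what deletion of MLL3, a histone methyltransferase of enhancers encoded by Kmt2c, does to these cells. The 3 Mll3-null arrays and the 3 wild-type (WT) arrays are each labelled biological replicates, and both groups were stem cell lines grown as organoids, epithelial cultures in which cells assemble into small structures. The lines were made by CRISPR, and the labels give neither the clones behind the replicates nor any treatment or age, so the p-values given below speak of the variation among these 6 samples, which may be technical. Array values are given in the order of replicates 1, 2 and 3 of each group, on a log2 scale.

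Oxidative phosphorylation is the last stage of respiration in the inner mitochondrial membrane. Complexes I (NADH dehydrogenase) and II (succinate dehydrogenase) feed electrons into the chain, complex III (the cytochrome bc1 complex) passes them to the soluble carrier cytochrome c, and complex IV (cytochrome c oxidase) hands them to oxygen. The proton gradient that builds up drives ATP synthase, complex V. Nearly all subunits are encoded in the nucleus, and a few catalytic ones by mitochondrial DNA. When oxygen is scarce, hypoxia-inducible factors (HIF) can exchange some subunits for other isoforms: Cox4i2 for Cox4i1 is the known case, and Ndufa4l2, a relative of Ndufa4, is a HIF target in human cells.

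By role the 91 genes were 32 subunits of complex I, 8 assembly factors of complex I (Ndufaf1 to Ndufaf8), 4 subunits of complex II, 8 of complex III, cytochrome c, 19 genes counted with complex IV, 17 of complex V and 2 pseudogenes (Atp5c1-ps and Uqcrh-ps1). Ndufa4 keeps the name of complex I but was later assigned to complex IV, and it and Ndufa4l2 are counted there. Genes such as Ndufb2, Ndufb4, Ndufs6, Uqcr10 and Cox6c share their probe sets with other symbols and were not used here. Most of the genes were bright: 71 had a mean above 6 on the log2 scale of the arrays, 14 lay between 4 and 6, and 6 lay below 4. The median level of the 91 genes was 8.34, against 5.02 for all genes. The brightest were Atp5b, the beta chain of ATP synthase, at 12.16 and Cox6a1 at 12.14, and the dim end held isoforms of other tissues such as Cox7b2 at 2.55 and Cox8c at 3.21 (6-array means). Levels of different probe sets depend on the probes and do not rank the genes' transcripts.

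The luminal markers Krt8, Krt18 and Epcam lay between 10.16 and 11.44 on all 6 arrays, whereas Krt19, Kit and Elf5 varied more, and WT replicate 2 was the lowest array for 5 of the 6 luminal markers, with a mean deviation of -0.79. Markers of fibroblasts, immune cells, adipocytes and endothelium had medians between 3.51 and 4.27. Mll3-null replicate 3 stood apart. It was the lowest array for 4 of the 6 measured basal markers (Krt14, Krt17, Trp63 and Acta2), with Krt14 at 6.65 against 11.74 to 12.43 on the other 5 arrays, but the highest for Oxtr, at 8.35, and not the lowest for Mylk. On it 123 genes lay over 1 log2 unit above and 294 over 1 unit below every other array, against at most 33 and 24 on any other array. No oxidative phosphorylation gene was among these on any array. Kmt2c was at 5.84, 6.42 and 6.07 in Mll3-null cells and 6.63, 5.58 and 5.82 in WT cells, so its level on this probe set did not separate the groups. In bulk RNA, fewer cells of a type and less RNA per cell cannot be told apart.

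A promoter feature that the rule did not use was more frequent among these genes than among all genes, though most of them lacked it. NRF1, a transcription factor known for nuclear genes of respiration, binds a palindromic core, spelled out in capitals in the windows below, which reads the same on both strands. In RefSeq promoter windows of the GRCm38.p6 build, 250 bases before to 50 after a start, 73 of the 91 genes had an entry, and 7 of them (9.59%) held this core exactly, against 1.07% of all 27025 genes in the table. The shorter core of hypoxia response elements, ACGTG, searched on both strands, was in 26.0% of the genes against 21.8% of all. A match describes letters only. In Ndufaf5 and Uqcrc1 the NRF1 core follows the start, and the windows of the other 5 genes with the core are shown, with the core in capitals:
Atp5g2, chr15:102671060-102671109, minus strand: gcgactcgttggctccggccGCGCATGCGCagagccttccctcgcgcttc
Atp5k, chr5:108434420-108434469, minus strand: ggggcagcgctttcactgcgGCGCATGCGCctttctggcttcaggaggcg
Cox6a1, chr5:115349091-115349140, minus strand: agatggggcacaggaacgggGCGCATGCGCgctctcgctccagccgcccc
Ndufa11, chr17:56717682-56717731, plus strand: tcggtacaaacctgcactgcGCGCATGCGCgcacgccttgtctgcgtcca
Ndufaf4, chr4:24897950-24897999, plus strand: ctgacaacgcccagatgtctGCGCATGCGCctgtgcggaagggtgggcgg
The core began between 42 bases (Atp5g2) and 162 bases (Cox6a1) before the start. The 7 genes with the core had a median difference of -0.079 (log2, Mll3-null minus WT) and the 66 without it -0.015.

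None of the oxidative phosphorylation genes passed the test across all genes. With limma and Benjamini-Hochberg adjustment over the 22180 genes, 0 of the 91 had an adjusted p under 0.05, where 0% of all genes were called, and the smallest adjusted p of the 91 was 0.84. In Mll3-null cells 42 of the 91 genes averaged above WT and 49 below, with a median difference of -0.011, against 0.0058 over all genes. The 71 bright ones had a median of -0.025. All genes that bright had a median of -0.022, with 3929 above and 4823 below. An unadjusted p below 0.05 was reached by 7 of the 91 genes (7.69%), of which 2 were higher and 5 lower. All genes gave 4.93% (2.51% higher and 2.42% lower). The array values of the groups did not overlap for 10 genes (11%), 2 above and 8 below, where all genes gave 10.7% (5.44% above and 5.31% below). Both shares are near the background. Among the 71 bright genes the shares were 7.04% and 11.3%, against 6.01% and 11.6% of all genes that bright. By direction these were 1 higher and 4 lower, and 1 above and 7 below. All genes that bright leaned lower too, with 203 higher and 323 lower, and 362 above and 657 below. The count of 7 genes at an unadjusted p below 0.05 also depended on single arrays. It was 10 without Mll3-null replicate 1, when 12.4% of all genes passed. It was 1 when Mll3-null replicate 2 was left out (3.23%) and 6 when Mll3-null replicate 3 was (3.87%). It was 1 without WT replicate 1 (3.96%), 3 without WT replicate 2 (4.17%) and 2 without WT replicate 3 (3.81%).

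Among these 6 samples the intervals of most of these genes were narrow, with the same limit as the p-values. The median 95% interval reached 0.24 log2 units to either side of the estimate, against 0.30 over all genes. For 80 of the 91 genes (87.9%) the whole interval lay inside a 1.5-fold change in either direction, as it did for 76.0% of all genes and 66.1% of the genes with a mean above 6. The 11 genes whose interval reached further were Ndufv3, Ndufs1, Ndufb10, Ndufaf5, Sdhc, Uqcr11, Cox6b2, Ndufa4l2, Cox7a1, Atp5g1 and the pseudogene Uqcrh-ps1.

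**Figure D1:**
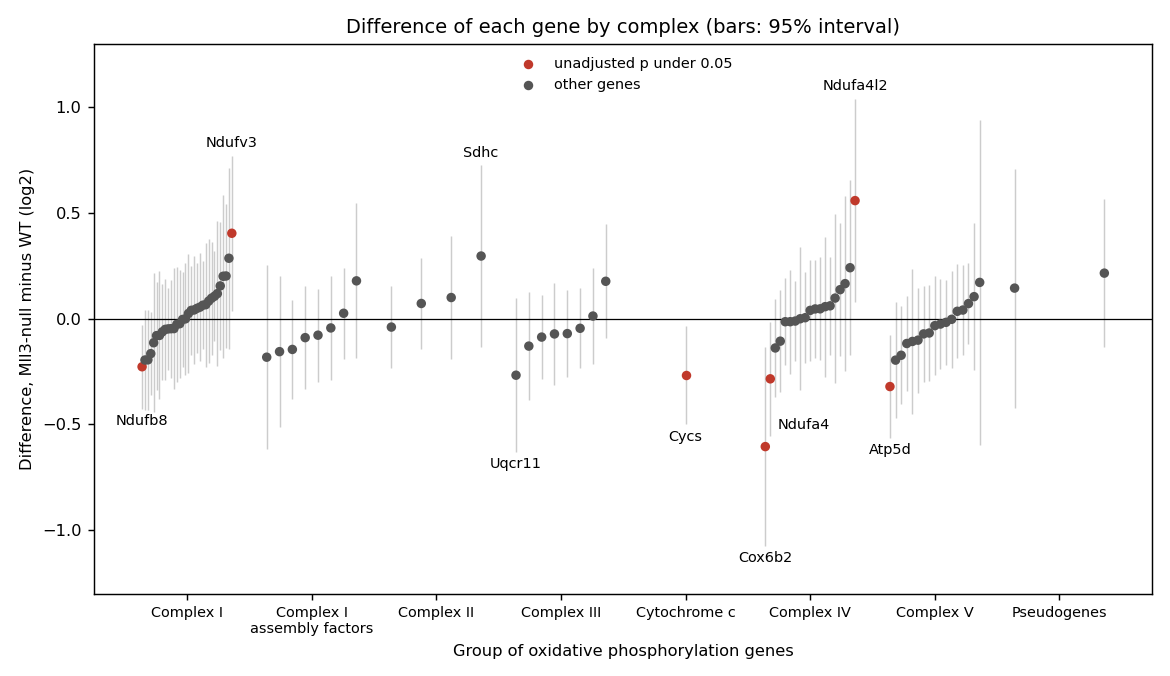
Difference of each of the 91 genes (vertical axis, Mll3-null minus WT, log2) by complex, with 95% intervals from limma as grey bars; red points are the 7 genes at an unadjusted p under 0.05. Most points lie near 0, and the widest differences are Ndufa4l2 at 0.56 and Cox6b2 at -0.60.

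Complex I, the entry point for electrons from NADH, showed no common direction, with 16 subunits at a higher and 16 at a lower mean and a median of 0.012. Its catalytic core, which holds the flavin and the iron-sulfur clusters, had 6 measured genes with differences between -0.050 and 0.29. Ndufv1, which holds the flavin, was at 8.53, 8.41 and 8.48 in Mll3-null cells and 8.49, 8.46 and 8.33 in WT cells. These values overlap. Ndufs1, the largest iron-sulfur subunit, was at 8.42, 8.77 and 9.13 in Mll3-null cells and 8.43, 8.49 and 8.54 in WT cells. Mll3-null replicates 2 and 3 were above every WT array, and replicate 1 was level with the lowest WT array. The difference was 0.29 ± 0.18 (moderated SE), and 0.11 without Mll3-null replicate 3.

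Of the 26 accessory subunits of complex I, which surround the core and stabilise it, the one with the smallest p was Ndufb8, a membrane arm subunit. It was at 6.21, 6.24 and 6.28 in Mll3-null cells and at 6.55, 6.41 and 6.45 in WT cells. All Mll3-null arrays lay below all WT arrays, with a difference of -0.23 ± 0.08 and a 95% interval from -0.42 to -0.029 (adjusted p = 0.84, limma). Ndufv3, a small accessory subunit next to the flavin site, differed the other way, with 7.34, 7.52 and 7.79 in Mll3-null cells and 7.14, 6.96 and 7.34 in WT cells. The groups were just apart, at 7.341 in Mll3-null replicate 1 and 7.340 in WT replicate 3, and the difference of 0.40 ± 0.15 was 0.28 without Mll3-null replicate 3 (adjusted p = 0.84, limma). The 250 bases before the start of Ndufv3 (chr17:31519865-31520114, plus strand, GRCm38.p6), shown because it had the widest difference of the bright genes, hold neither core and are therefore all in lower case, while the whole window used for the shares, which runs past the start, does hold the hypoxia core:
Ndufv3: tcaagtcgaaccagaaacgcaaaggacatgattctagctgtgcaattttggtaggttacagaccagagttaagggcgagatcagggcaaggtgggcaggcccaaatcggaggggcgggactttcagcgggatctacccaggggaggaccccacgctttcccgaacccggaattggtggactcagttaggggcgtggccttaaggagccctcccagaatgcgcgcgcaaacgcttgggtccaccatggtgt

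Further accessory subunits lay slightly lower. Ndufab1, the mitochondrial acyl carrier protein, was at 6.63, 6.57 and 6.59 in Mll3-null cells and at 6.78, 6.82 and 6.68 in WT cells, a difference of -0.16 ± 0.08. Ndufb6, another membrane arm subunit, was at 7.95, 7.75 and 7.69 in Mll3-null cells and at 7.99, 8.02 and 7.96 in WT cells, a difference of -0.19 ± 0.10. Ndufa3, named because its groups did not overlap, was at 10.09, 10.12 and 10.24 in Mll3-null cells and at 10.31, 10.47 and 10.24 in WT cells, also -0.19 ± 0.10. Its groups were just apart, at 10.242 in Mll3-null replicate 3 and 10.245 in WT replicate 3. In these 3 genes the groups did not overlap, but the intervals included 0. Of the 8 assembly factors, which help build the complex and are no part of it, 6 had a lower mean. Their differences ran from -0.18 to 0.18. None had groups that did not overlap, where 10.7% of all genes had such groups.

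In complex II, the link to the citric acid cycle, 3 of 4 subunits had a higher mean. Sdha, the flavoprotein, was at 10.06, 10.09 and 10.39 in Mll3-null cells and at 10.07, 9.98 and 10.19 in WT cells, and without Mll3-null replicate 3 its difference of 0.10 ± 0.12 turned to -0.0049. Sdhb, the iron-sulfur subunit, was nearly level, at 8.38, 8.34 and 8.46 in Mll3-null cells and at 8.44, 8.42 and 8.44 in WT cells. Sdhc, a membrane anchor, was at 8.36, 8.87 and 8.99 in Mll3-null cells and at 8.49, 8.31 and 8.54 in WT cells. As for Ndufs1, Mll3-null replicates 2 and 3 were above the WT arrays and replicate 1 was among them, with a difference of 0.30 ± 0.18. All 4 subunits had their highest value in Mll3-null replicate 3.

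Complex III had 6 of 8 subunits at a lower mean and a median difference of -0.071. None of the 8 had separated groups, where 10.7% of all genes had. Uqcr11, its smallest subunit, was at 6.64, 6.67 and 6.91 in Mll3-null cells and at 7.30, 6.86 and 6.87 in WT cells. WT replicate 1 alone was high, and without it the difference of -0.27 ± 0.15 was -0.12. The Rieske iron-sulfur protein Uqcrfs1 was at 6.92, 7.04 and 7.07 in Mll3-null cells and at 6.85, 6.65 and 6.99 in WT cells, a difference of 0.18 ± 0.11. The other catalytic subunit of the set, cytochrome c1 (Cyc1), was at 7.93, 7.96 and 8.06 in Mll3-null cells and at 8.11, 8.05 and 8.04 in WT cells, a difference of -0.086 ± 0.083. The core protein Uqcrc1 was at 10.19, 9.94 and 9.89 in Mll3-null cells and at 10.15, 10.09 and 10.17 in WT cells. These 3 genes differed by no more than their arrays did among themselves.

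Cytochrome c, the carrier between complexes III and IV and also a trigger of apoptosis once released, lay lower in every Mll3-null array. Cycs was at 10.34, 10.19 and 10.38 in Mll3-null cells and at 10.56, 10.48 and 10.67 in WT cells. The difference of -0.27 ± 0.10 corresponds to a 1.2-fold lower level, with an interval from -0.50 to -0.032 (adjusted p = 0.84, limma). Cycs has 5 probe sets in the annotation, of which 2 hold identical values. The other probe sets differed by -0.14 ± 0.09 (mean level 9.06), -0.31 ± 0.12 (7.73, the identical pair) and -0.16 ± 0.09 (5.03), all lower. The gene has processed copies in the genome, and which of them each probe set reads was not tested. The bases before its start are shown because Cycs was the carrier gene with separated groups. They hold a hypoxia core on the strand opposite to the gene, read here as the capitals, beginning 159 bases before the start (chr6:50566570-50566819, minus strand, GRCm38.p6):
Cycs: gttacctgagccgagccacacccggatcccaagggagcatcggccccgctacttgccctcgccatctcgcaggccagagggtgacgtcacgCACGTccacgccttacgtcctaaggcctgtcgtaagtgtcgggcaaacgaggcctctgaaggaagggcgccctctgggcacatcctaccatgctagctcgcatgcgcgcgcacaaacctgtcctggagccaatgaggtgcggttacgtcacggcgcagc

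**Figure D2:**
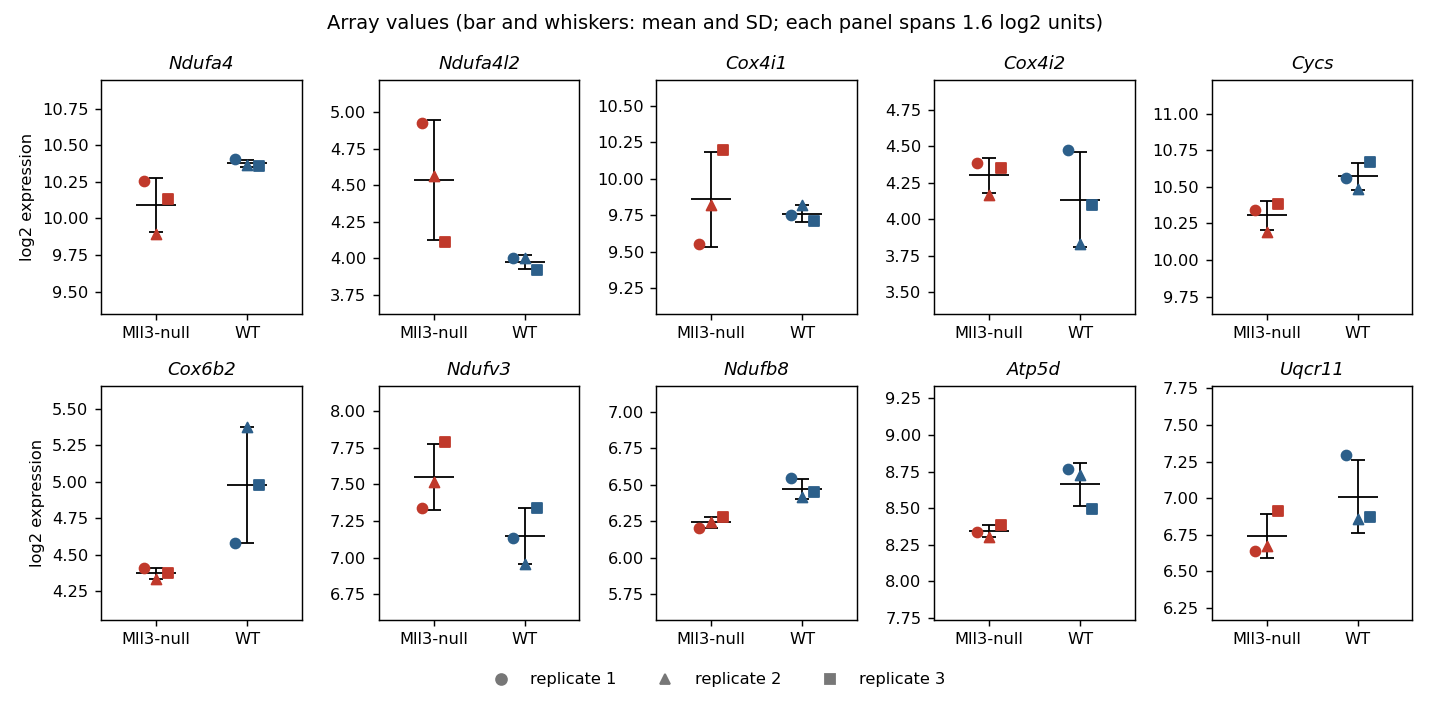
Value of 10 genes on each array (vertical axis, log2 expression; every panel spans the same width) in Mll3-null cells, in red, and WT cells, in blue, with group mean and SD and the replicate by symbol. Ndufa4, Cycs, Cox6b2, Ndufb8 and Atp5d lie lower and Ndufa4l2 higher in every Mll3-null array, whereas Cox4i1 and Cox4i2 overlap between the groups.

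In complex IV the related genes Ndufa4l2 and Ndufa4 differed in opposite directions. Ndufa4l2, the relative of Ndufa4 known as a HIF target in human cells, was at 4.92, 4.57 and 4.11 in Mll3-null cells and 4.0, 4.0 and 3.92 in WT cells. No Mll3-null array overlapped the WT range, replicate 1 being the farthest above it and replicate 3 the nearest. The difference of 0.56 ± 0.20 corresponds to 1.47-fold, with an interval from 0.077 to 1.04 (adjusted p = 0.84, limma). Values this low may lie close to background, where a fold may be understated or may be noise, and this was not tested. Ndufa4 itself was at 10.25, 9.89 and 10.13 in Mll3-null cells and at 10.41, 10.37 and 10.36 in WT cells. Again the groups did not overlap, with a difference of -0.28 ± 0.11, or 1.22-fold lower (interval from -0.55 to -0.014, adjusted p = 0.84, limma).

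Within each array, Ndufa4l2 minus Ndufa4 was -5.33, -5.33 and -6.03 in Mll3-null arrays, against -6.41, -6.36 and -6.44 in WT arrays. The distance between these probe sets was therefore smaller in Mll3-null cells by 0.84 log2 units in the mean, most in replicates 1 and 2. Without Mll3-null replicate 1 the difference of Ndufa4l2 was 0.36 and without replicate 3 it was 0.77. The bases before the start of Ndufa4 (chr6:11907451-11907700, minus strand, GRCm38.p6), shown as the separated member of the pair with a promoter entry, held neither core:
Ndufa4: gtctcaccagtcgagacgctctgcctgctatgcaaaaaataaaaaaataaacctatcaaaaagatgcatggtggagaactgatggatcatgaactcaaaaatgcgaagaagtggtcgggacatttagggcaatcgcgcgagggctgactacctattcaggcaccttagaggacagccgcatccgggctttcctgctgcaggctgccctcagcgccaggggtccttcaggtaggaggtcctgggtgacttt

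The known hypoxia exchange of complex IV, Cox4i2 for Cox4i1, did not show the same pattern. Cox4i2 was at 4.39, 4.17 and 4.35 in Mll3-null cells and at 4.48, 3.83 and 4.10 in WT cells, with WT replicate 1 the highest of all. The difference was 0.17 ± 0.17, and 0.016 without WT replicate 2. Cox4i1 was at 9.55, 9.82 and 10.20 in Mll3-null cells and at 9.75, 9.82 and 9.71 in WT cells, a difference of 0.10 ± 0.17 that was -0.072 without Mll3-null replicate 3. Cox4i2 minus Cox4i1 was -5.17, -5.66 and -5.85 in Mll3-null arrays, against -5.28, -5.99 and -5.61 in WT arrays, which overlap. Lonp1, the mitochondrial protease that degrades Cox4i1 protein when this exchange takes place, was at 7.87, 7.75 and 8.04 in Mll3-null cells and at 7.58, 7.35 and 7.58 in WT cells. It lay higher in every Mll3-null array, with a difference of 0.38 ± 0.12 (adjusted p = 0.84, limma).

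Among the other isoforms of complex IV, Cox6b2, the testis form of Cox6b1, was at 4.41, 4.34 and 4.37 in Mll3-null cells and at 4.58, 5.37 and 4.98 in WT cells. The Mll3-null arrays were close together below all WT arrays, the WT arrays were spread widely, and the difference was -0.60 ± 0.20 (interval from -1.07 to -0.14, adjusted p = 0.84, limma). Cox7a1, the heart and muscle form, was at 5.14, 5.63 and 5.62 in Mll3-null cells and at 5.33, 4.99 and 5.34 in WT cells. Mll3-null replicate 1 lay within the WT range, and the difference was 0.24 ± 0.17. Cox6a2 and Cox8b, muscle forms, and Cox8c, a testis form, differed by 0.0052, 0.057 and 0.047.

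Of the 10 general subunits of complex IV, only Ndufa4 above (10%) had groups that did not overlap, where 10.7% of all genes had such groups. Cox5a was at 8.85, 8.72 and 9.01 in Mll3-null cells and at 9.0, 8.97 and 8.94 in WT cells, a difference of -0.11 ± 0.10. Cox5b was at 9.52, 9.72 and 9.90 in Mll3-null cells and at 9.45, 9.53 and 9.73 in WT cells, a difference of 0.14 ± 0.13, and its second, dim probe set differed by 0.41 ± 0.18. The other general forms Cox6a1, Cox6b1, Cox7a2 and Cox8a differed by -0.011, -0.14, 0.040 and -0.014, and Cox7a2l, a factor that joins complexes III and IV into supercomplexes, by 0.061. For all 10 general subunits the 95% interval stayed inside a 1.5-fold change.

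In ATP synthase 12 of 17 genes had a lower mean, with a median of -0.033. The gene with the smallest p was Atp5d, the delta subunit. It was at 8.33, 8.30 and 8.39 in Mll3-null cells and at 8.77, 8.72 and 8.50 in WT cells. The groups did not overlap, and the difference of -0.32 ± 0.10 corresponds to a 1.25-fold lower level (interval from -0.56 to -0.077, adjusted p = 0.84, limma). A second probe set of Atp5d at a similar level differed by only -0.12 ± 0.09, so the size rests on the probe set. The epsilon subunit Atp5e was at 8.23, 8.23 and 8.29 in Mll3-null cells and at 8.42, 8.55 and 8.29 in WT cells, a difference of -0.17 ± 0.10. The alpha and beta chains, which form the catalytic hexamer, overlapped between the groups. Atp5a1 was at 11.54, 11.55 and 11.41 in Mll3-null cells and at 11.56, 11.46 and 11.67 in WT cells, and Atp5b was at 12.16, 12.10 and 12.16 in Mll3-null cells and at 12.32, 12.05 and 12.15 in WT cells.

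The genes of the membrane ring, Atp5g1, Atp5g2 and Atp5g3, encode the same mature c subunit from separate loci. Atp5g1 had the widest spread of all 91 genes, at 5.43, 5.14 and 5.67 in Mll3-null cells and at 5.11, 5.93 and 4.68 in WT cells. That spread of 1.25 units lies within the WT group, and without WT replicate 3 the difference of 0.17 ± 0.32 turned to -0.11. The brighter Atp5g2 and Atp5g3 differed by 0.072 ± 0.079 and -0.12 ± 0.09. The mean deviation of the complex V genes from their 6-array means was -0.022, -0.032 and -0.017 in Mll3-null cells and 0.018, 0.068 and -0.015 in WT cells. The groups were barely apart, with a shift of -0.047 beside a pooled SD between arrays of 0.030. All genes with a mean above 6 shifted by -0.029 beside a pooled SD of 0.028, and their groups overlapped.

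**Figure D3:**
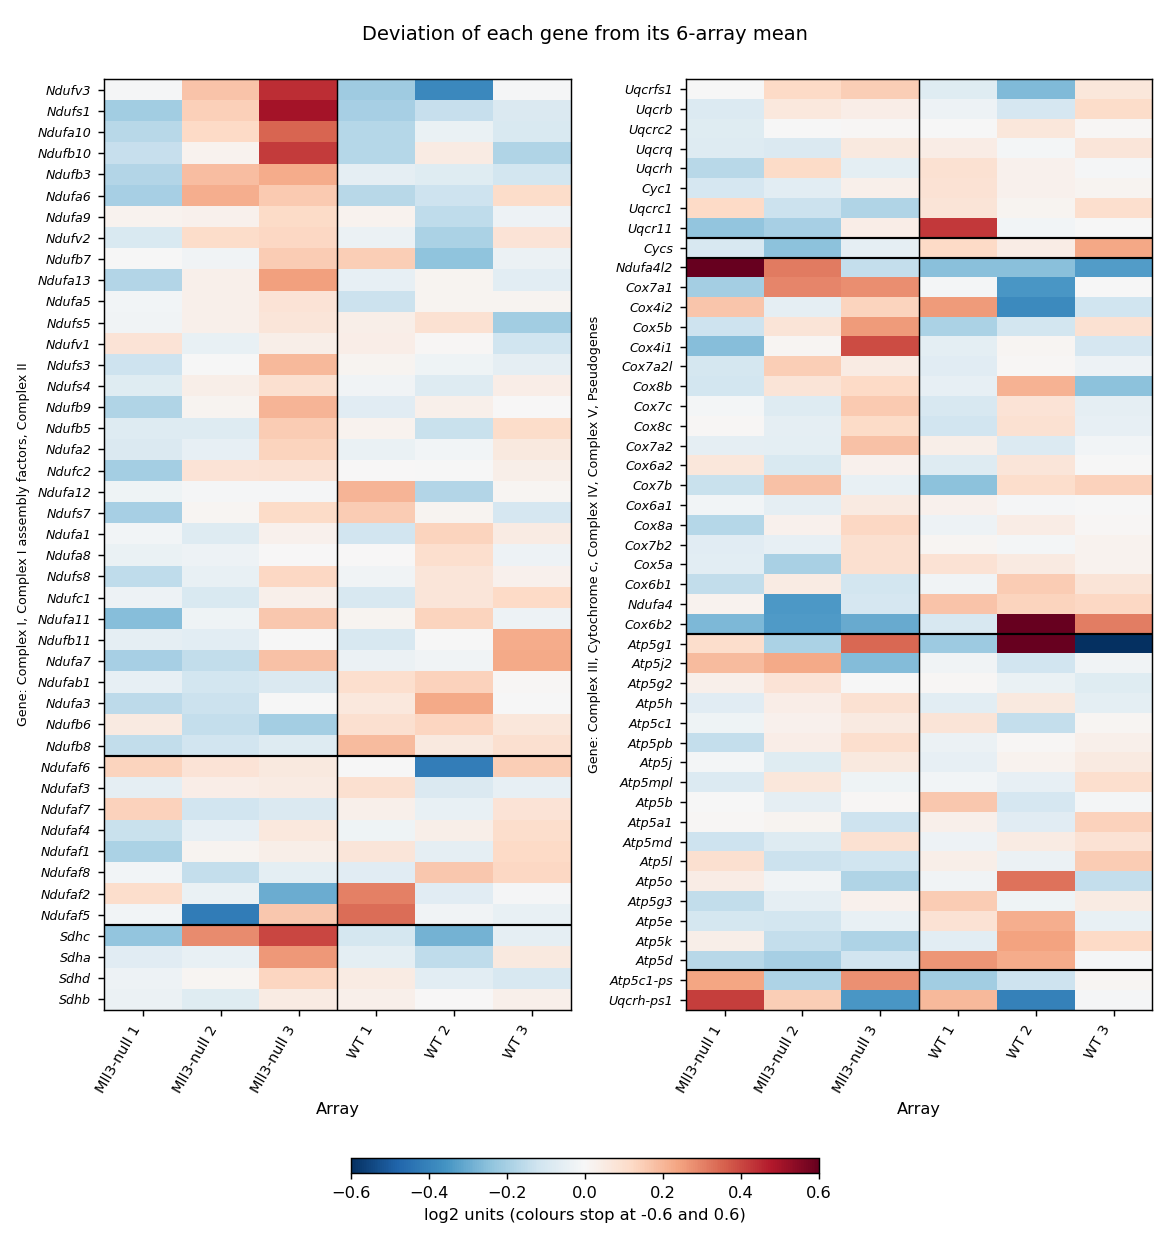
Deviation of each gene from its 6-array mean (colour, log2 units) on the 6 arrays (columns, Mll3-null left of the line and WT right of it), grouped by complex and ordered by difference within each. Mll3-null replicate 3 carries the highest value for 18 of the 32 complex I genes, against 24.5% of all genes. Mll3-null replicate 1 carries the lowest for 15 of them, against 15.2% of all genes.

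Over the 91 genes, and for complexes I, II and IV, the SD of the mean deviation among Mll3-null arrays was larger than the difference between the groups, which was not so for complexes III and V. Mll3-null replicate 3 had the highest value for 37 of the 91 genes (40.7%), where it had the highest value for 24.5% of all genes and 30.8% of those with a mean above 6. Mll3-null replicate 1 had the lowest value for 31 of the 91 (34.1%), against 15.2% of all genes and 17.0% of those with a mean above 6. The 6 measured basal markers had mean deviations of 0.44, 0.85 and -2.07 in Mll3-null arrays, against 0.43, 0.014 and 0.33 in WT arrays, and their part in this pattern was not tested. For complex I the mean deviation was -0.098, 0.002 and 0.126 in Mll3-null cells and -0.018, -0.016 and 0.004 in WT cells. Thus the Mll3-null arrays lay on both sides of the WT arrays. Without Mll3-null replicate 3 the median difference was -0.043 for the 91 genes, -0.052 for complex I, 0.011 for complex II and -0.020 for complex IV, against -0.011, 0.012, 0.087 and 0.040 with it. For complex IV the mean deviation was -0.042, -0.007 and 0.072 in Mll3-null arrays, against -0.038, 0.025 and -0.010 in WT arrays.

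Chromosome position went with part of this pattern. Earlier results of these data had shown that expressed genes of chromosome 1 ran high in Mll3-null replicate 3 and those of chromosome 10 in WT replicate 1, so the genes were grouped by the chromosome in the GRCm38.p6 annotation, as a description. The 5 genes on chromosome 1 were Ndufs1, Ndufa10, Ndufb3, Sdhc and Cox5b. All 5 had their highest value in Mll3-null replicate 3, and the median of the 5 from the 6-array median was -0.11, 0.25 and 0.41 in the Mll3-null arrays, against values between -0.087 and 0.026 in the WT arrays. They ranked at positions 3, 4, 7, 13 and 15 among the 91 genes by difference, all positive, with a median of 0.20. The 510 genes of this chromosome with a mean above 6 had medians of -0.061, 0.091 and 0.30 in the Mll3-null arrays and between -0.063 and 0.0095 in the WT arrays, and their median difference was 0.15.

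Ndufa10, an accessory subunit of complex I, shows the order plainly at 9.99, 10.28 and 10.51 in Mll3-null cells and 9.99, 10.12 and 10.07 in WT cells. On chromosome 10 lie Atp5b, Atp5d, Ndufa12, Ndufs7, Uqcr11 and Ndufa4l2. The first 5 had their highest value in WT replicate 1, where the 443 genes of this chromosome with a mean above 6 lay 0.22 above their 6-array median. Without WT replicate 1 the difference of Atp5d was -0.27 and that of Ndufa4l2 0.57. The 80 genes on other chromosomes had a median difference of -0.012, and 32 of them (40.0%) were still highest in Mll3-null replicate 3. The part of chromosome dosage in these values was not tested.

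**Figure D4:**
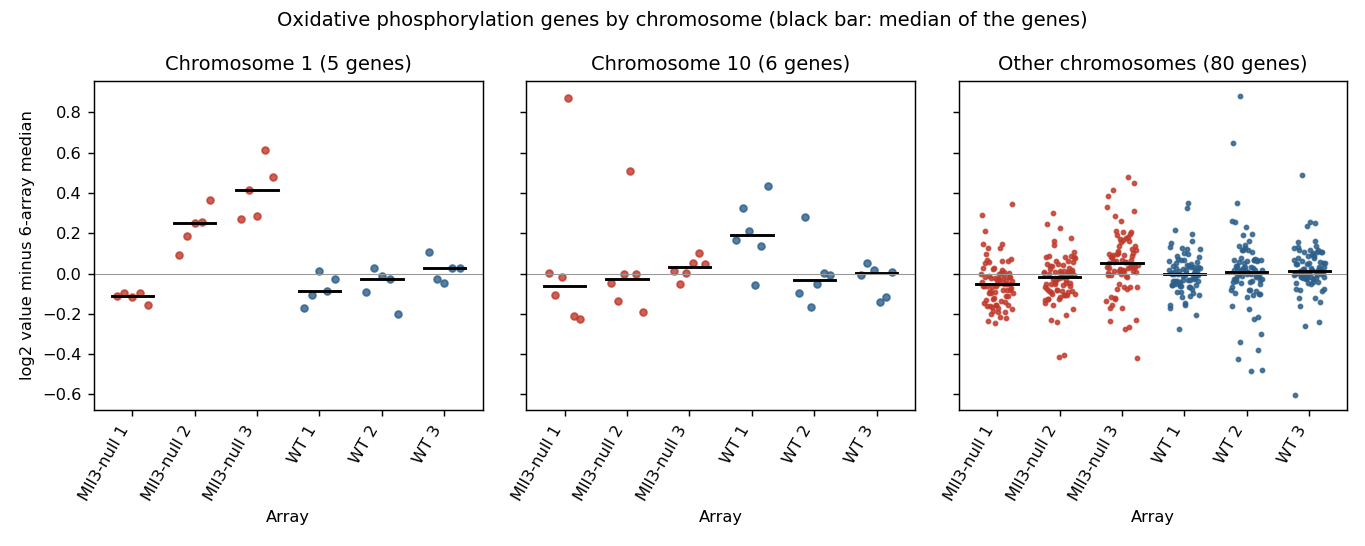
Value of each oxidative phosphorylation gene minus its 6-array median (vertical axis, log2 units) on each array, for genes on chromosome 1, chromosome 10 and all other chromosomes; black bars are medians over the genes. The chromosome 1 genes lie at 0.41 in Mll3-null replicate 3 and 0.25 in replicate 2, and the chromosome 10 genes are highest in WT replicate 1.

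Subunits encoded by mitochondrial DNA, which the rule left out, were close in both groups. All 10 measured genes had 95% intervals inside a 1.5-fold change, with differences from -0.012 to 0.17 and a median of 0.032. The widest was ND6, a complex I subunit and the only protein of the light strand, at 11.11, 11.49 and 11.19 in Mll3-null cells and at 11.04, 11.07 and 11.18 in WT cells, where Mll3-null replicate 2 was high and the groups overlapped. ND4L, another complex I subunit, was at 12.94, 12.93 and 12.89 in Mll3-null cells and at 12.77, 12.79 and 12.91 in WT cells, again overlapping. Probe sets this bright leave little room at the top of the scale, which runs to 13.56.

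Of 36 measured assembly factors outside the rule, 22 averaged higher and 14 lower in Mll3-null cells, none passed the adjusted test, and 3 (8.33%, against 4.93% of all genes) had an unadjusted p under 0.05. The lower ones were Cox18, which inserts a catalytic subunit of complex IV into the membrane, at -0.29 ± 0.11, and Uqcc2, a factor of complex III, at -0.35 ± 0.14. Uqcc2 was at 7.18, 6.94 and 6.83 in Mll3-null cells and at 7.16, 7.53 and 7.32 in WT cells. Bcs1l, which inserts the Rieske protein into complex III and was named for its place on chromosome 1 after its values were seen, was at 7.05, 7.48 and 7.99 in Mll3-null cells and at 6.96, 6.93 and 6.98 in WT cells. All its Mll3-null arrays lay above the WT arrays, with replicate 3 the highest. Mll3-null replicate 3 was highest for 23 of the 36 factors (63.9%), against 24.5% of all genes. It was also highest for 4 of the 5 factors on chromosome 1, where it was highest for 64.7% of the genes with a mean above 6.

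Of 10 measured genes of a list linked to HIF and the switch of mitochondrial metabolism, which holds Lonp1 above and also genes of other compartments such as Ldha, Slc16a3 and Mxi1, 9 had a higher mean, with a median of 0.21. None passed the adjusted test, and 3 (30%, against 2.51% of all genes on the higher side) had an unadjusted p under 0.05: Lonp1, Bnip3 and, named after its values were seen, Pdk1. Bnip3, a receptor for the removal of mitochondria, was at 7.22, 6.68 and 6.02 in Mll3-null cells and 6.01, 5.69 and 5.82 in WT cells. Its order within the Mll3-null group is that of Ndufa4l2, highest in replicate 1 and lowest in replicate 3. Lonp1 and Pdk1 did not share this order: Lonp1 was highest in replicate 3 and Pdk1 was level among the Mll3-null arrays. Pdk1, the kinase that shuts pyruvate out of the citric acid cycle, was at 7.41, 7.41 and 7.40 in Mll3-null cells and at 7.31, 6.29 and 6.73 in WT cells. The list was written with the raised HIF targets of these data already known, so its direction is no independent evidence.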

How the data were processed

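The deposited values are log2 expression summaries, 1 per probe set and array, made by the authors with Affymetrix Expression Console, per the submitters' processing notes. Which version, summarization, normalization and build they used is not stated in those notes or the labels. The log2 scale was read from the values, which run from 1.72 to 13.56 with array medians between 4.35 and 4.40, so they had been scaled alike by the authors, and a change of total RNA would not show. No detection calls were used. The 6 columns were matched to samples by name.

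Of 41345 probe sets, 23521 carry exactly 1 symbol in the platform annotation. The probe set with the highest 6-array mean stood for each gene, which gave 22180 genes. The comparison used limma 3.58.1 under R 4.3.3 (two-sided, genotype as the only term, moderated standard errors, 95% intervals), with Benjamini-Hochberg adjustment over all genes and a threshold of 0.05. The fit was tested on simulated data. Genes were called bright above 6 and dim below 4. Complexes are described by counts and medians with no test. The number of arrays limits the precision.

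Named genes were, by rule, the 4 (complex I) or 2 (other complexes) with the smallest p, the defining subunits, isoform pairs, the 5 with the widest range, Kmt2c and the 2 smallest p of each accompanying list. Other genes were chosen after their values were seen. The genes, lists and rules were chosen with earlier results of these data known. Alternatives were an intensity trend, array weights, a dim filter, quantile normalization, median centring, averaged probe sets, the replicate block and leaving out arrays. Leaving out chromosomes 1 and 10, and WT replicate 1 with Mll3-null replicate 3, were chosen after seeing the data.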

Additional observations from a re-analysis of the deposited data

How the results depend on the processing

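Under every alternative 0 genes in all and 0 oxidative phosphorylation genes passed the adjusted threshold, and the lowest adjusted p of any of the 51 named genes was 0.12, for Pdk2 without Mll3-null replicate 1. The number of oxidative phosphorylation genes at an unadjusted p under 0.05 was 7, ran from 1 to 10 when 1 array was left out, and was 2 (3.74% of all genes) with WT replicate 1 and Mll3-null replicate 3 both left out. With 1 array left out the median difference of the 91 genes ran from -0.043 to 0.028, and that of complex IV from -0.020 to 0.067. With both those arrays left out, complex IV stood at -0.046 and complex V at -0.070. With array weights 10 of the 91 genes had an unadjusted p under 0.05, where 11.3% of all genes did. The replicate block gave 5 such genes (5.82% of all genes) and changed no call. Deviations of same-numbered arrays correlated at 0.035, 0.079 and 0.31 over genes. The highest correlation with another number was 0.22, 0.0066 and -0.035 for Mll3-null replicates 1, 2 and 3. With 3 arrays per group these values do not settle whether the numbers pair the samples.

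Of the 51 named genes 38 kept their sign in all 13 alternatives. Among these, the intensity trend and the replicate block leave every difference unchanged and could not turn a sign. The sign of the other 13 turned in at least 1 alternative. Cox6a2 was at -0.036 with array weights, -0.017 with quantile normalization, -0.017 with median centring and -0.045 with both arrays left out. Cox7a2 was at -0.016 with array weights and -0.010 with both arrays left out, and Cox8a at 0.0038 with array weights and 0.00094 with quantile normalization. With both arrays left out Sdha was at -0.0083, Cox4i1 at -0.077, Cox5b at -0.015, Atp5b at 0.030, Cox8c at -0.046 and Atp5g1 at -0.022. Leaving out single arrays gave ranges across 0 for Cox6a2 (-0.033 to 0.051), Cox8a (-0.080 to 0.069), Uqcrh-ps1 (-0.027 to 0.36), Cox6a1 (-0.040 to 0.014), Kmt2c (-0.11 to 0.41), Sdha (-0.0049 to 0.16), Cox4i1 (-0.072 to 0.25), Cox7a2 (-0.038 to 0.080), Cox8c (-0.00023 to 0.10), Atp5b (-0.092 to 0.040), Cox8b (-0.051 to 0.18) and Atp5g1 (-0.11 to 0.52). The cause of these turns was not tested. Levels near 4 may lie close to background, which limits what Ndufa4l2, Cox4i2 and Cox6b2 can show.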

Other observations

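Of 13 measured genes of the citric acid cycle 7 averaged higher and 6 lower in Mll3-null cells, with a median difference of 0.022 and none at an unadjusted p under 0.05. The smallest p in this list was that of citrate synthase, Cs, at 10.19, 9.67 and 9.78 in Mll3-null cells and at 10.46, 10.03 and 10.14 in WT cells. Cs lies on chromosome 10, its highest array was WT replicate 1, and without that array its difference of -0.33 ± 0.18 was -0.21. Fumarase, Fh1, on chromosome 1, was at 9.36, 9.48 and 9.77 in Mll3-null cells and at 9.31, 9.21 and 9.41 in WT cells.

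Of 8 genes of the pyruvate dehydrogenase system 5 had a higher mean. Pdk2, a kinase that inactivates the enzyme, was at 6.20, 7.45 and 7.82 in Mll3-null cells and at 6.42, 6.38 and 6.55 in WT cells, so Mll3-null replicates 2 and 3 stood above every WT array while replicate 1 lay below them all. Its difference of 0.71 ± 0.39 was 1.19 without Mll3-null replicate 1. Pdhb, a subunit of the enzyme, differed by 0.22 ± 0.14. Among 15 regulators of mitochondrial biogenesis, with a median of -0.020, Ppargc1a, the co-activator PGC-1 alpha, was at 5.90, 6.56 and 7.23 in Mll3-null cells and at 6.15, 5.81 and 6.30 in WT cells. Its difference of 0.47 ± 0.33 was 0.14 without Mll3-null replicate 3. Tfb1m, a mitochondrial RNA methyltransferase, differed by 0.20 ± 0.10. None of these genes passed the adjusted test (limma).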
